A study of Mus musculus with 8 samples.

Results

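The genes described here were 6 genes of red blood cells, selected in the count table by symbol: Hba-a1, Hba-a2, Hbb-bs, Hbb-bt, Alas2 and Slc4a1. All 6 were found among the 55487 genes of the table, and 5 of them passed the filter on low counts that left 16061 genes for testing. Red cells carry oxygen on hemoglobin, a tetramer that pairs alpha chains with beta chains in equal number around heme groups. Young red cells that have just left the marrow still hold hemoglobin mRNA, so these transcripts are commonly read as a sign of blood in a tissue sample. The levels are described on that reading for each tumor library and between the genotypes, though the alpha and beta chains did not vary closely together.

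The libraries came from subcutaneous tumors of LLC cells, a mouse Lewis lung carcinoma line, grown in syngeneic C57BL/6J mice and collected at day 12. The 4 wild-type tumors came from LLC cells with an intact Ago2 gene, which encodes a protein that binds small RNAs, and the 4 Ago2KO tumors from LLC cells lacking it. The knockout was made with a CRISPR guide and single-cell cloning, so it represents 1 clone, and host cells, red cells included, kept Ago2 in both genotypes. Mice were females of 6 to 8 weeks, and the labels put all 8 libraries in batch 1. Whole tumors were lysed for RNA, and the methods mention removal of red cells only for flow cytometry.

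Depth differed widely, from 7903288 counts in wild-type 4 to 268564145 in Ago2KO 4, and wild-type 2 was the second shallowest with 20683668. Ago2 mRNA was 154 CPM ± 28.9 (SD, n = 4) in wild-type and 239 ± 99.1 in Ago2KO tumors (adjusted p = 0.205, edgeR), where CPM is counts scaled to library size with TMM factors. A guide that alters the reading frame need not lower mRNA, so this level does not check the labels, and every direction below rests on them. Libraries also differed in tissue makeup: summed over 10 skeletal muscle genes, wild-type 3 held 4017 CPM against 52.6 to 547 in the others.

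The 2 alpha genes lie in a cluster on chromosome 11, with Hbq1b between them, and the 2 beta genes in a cluster on chromosome 7. In GENCODE M21 coordinates (GRCm38, the build of mm10), Hba-a1 (ENSMUSG00000069919.7) lies at chr11:32283511-32284465 and Hba-a2 (ENSMUSG00000069917.7) at chr11:32296489-32297298, both on the plus strand. Hbb-bs (ENSMUSG00000052305.6) lies at chr7:103826534-103828096 and Hbb-bt (ENSMUSG00000073940.3) at chr7:103812524-103813996, both on the minus strand. Alas2 (ENSMUSG00000025270.13) lies at chrX:150547375-150570638, and Slc4a1 (ENSMUSG00000006574.15) at chr11:102348824-102366203 on the minus strand.

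The copies within a pair are nearly identical, and this limits what a read of 100 bases can tell. The coding sequences of Hba-a1 and Hba-a2 differ at 1 of 429 bases, those of Hbb-bs and Hbb-bt at 1 of 444, and neither change alters the protein. The coding stretches of exon 3 that hold these single differences follow here, from GENCODE M21 transcripts, with the differing base in capitals. They lie at chr11:32284263-32284362 (Hba-a1, plus strand), chr11:32297080-32297179 (Hba-a2, plus), chr7:103826692-103826791 (Hbb-bs, minus) and chr7:103812683-103812782 (Hbb-bt, minus).
Hba-a1: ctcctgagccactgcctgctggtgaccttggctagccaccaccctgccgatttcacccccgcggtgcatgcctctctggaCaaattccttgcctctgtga
Hba-a2: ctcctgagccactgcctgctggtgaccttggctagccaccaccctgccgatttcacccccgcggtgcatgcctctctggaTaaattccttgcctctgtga
Hbb-bs: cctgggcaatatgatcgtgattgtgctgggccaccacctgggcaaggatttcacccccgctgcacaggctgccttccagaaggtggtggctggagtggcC
Hbb-bt: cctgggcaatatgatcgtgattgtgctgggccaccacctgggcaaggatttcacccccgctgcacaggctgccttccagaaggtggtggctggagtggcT

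Of all 100-base windows in its transcript, 56.5% of Hba-a1 and 74.51% of Hba-a2 occur in the other alpha gene. For the beta genes the shares were 62.57% of Hbb-bs and 54.8% of Hbb-bt. How reads that match both copies were counted is not stated, so the split within a pair is uncertain and sums over each pair are given beside it. Alas2 and Slc4a1 shared no such window with another member. The alpha and beta transcripts share far less, with 60.69% identity between Hba-a1 and Hbb-bs, so that split moves no reads between the chains. If reads that match both copies were left out, the sums and the balance of the chains would miss them. This could not be checked.

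The sequences upstream of the genes show the letters that erythroid factors are known to bind. The 250 bases before the RefSeq start (GRCm38.p6) are given for 1 gene of each chain, Hba-a2 at chr11:32296242-32296491 (plus strand) and Hbb-bs at chr7:103827929-103828178 (minus strand). Capitals mark GATAA (read by GATA factors), CACCC (read by KLF factors), CCAAT and TATAA, which do not overlap in these 2 windows.
Hba-a2: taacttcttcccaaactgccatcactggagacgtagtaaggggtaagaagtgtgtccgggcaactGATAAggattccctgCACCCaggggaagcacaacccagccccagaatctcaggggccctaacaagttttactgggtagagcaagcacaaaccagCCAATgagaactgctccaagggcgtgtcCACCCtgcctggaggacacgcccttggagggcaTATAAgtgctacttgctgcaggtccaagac
Hbb-bs: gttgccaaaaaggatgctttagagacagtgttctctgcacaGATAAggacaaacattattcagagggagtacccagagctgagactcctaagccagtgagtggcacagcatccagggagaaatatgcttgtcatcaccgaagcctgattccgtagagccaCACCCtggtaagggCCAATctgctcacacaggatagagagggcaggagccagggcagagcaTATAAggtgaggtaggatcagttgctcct

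Searched on both strands, all 4 hemoglobin genes held each of these motifs, and Alas2 held all but CCAAT. Over 32851 promoters of the same length, 22.58% held GATAA, 52.01% CACCC, 33.85% CCAAT and 22.78% TATAA, so single matches are common. The letters TGAGTCA, read by NF-E2 and held by 4.463% of promoters, were also searched and do not stand in these windows. These matches are descriptions of the letters and were not tested as binding sites.

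Hemoglobin mRNA made up a small part of every library. The 4 hemoglobin genes together took 0.00522% of all counts in wild-type 1, 0.00523% in wild-type 2, 0.01% in wild-type 3 and 0.0174% in wild-type 4. In the Ago2KO tumors the shares were 0.0133%, 0.004%, 0.00967% and 0.00739% for replicates 1 to 4. The ranges overlapped, with Ago2KO 2 lowest and wild-type 4 highest. The widest exact 95% binomial interval was that of wild-type 4, from 0.0165% to 0.0184%, so the spread between tumors was far larger than counting error. These intervals cover counting error only.

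The mean share was 0.00949% ± 0.00578 (SD, n = 4) in wild-type and 0.00858% ± 0.00389 in Ago2KO tumors, a log2 ratio of -0.15. Without wild-type 4 the wild-type mean was 0.00683% and the log2 ratio was 0.33. It was also positive without Ago2KO 2 (0.091) and, as an alternative chosen after seeing the data, with the GC trend divided out (0.054), so these tumors gave no stable direction. The highest share was 4.36 times the lowest over all 8 tumors. Within wild-type it was 3.34 times and within Ago2KO 3.32 times, so tumors of 1 genotype varied nearly as much as all 8. In bulk RNA, fewer red cells and less hemoglobin RNA per red cell cannot be told apart.

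**Figure D1:**
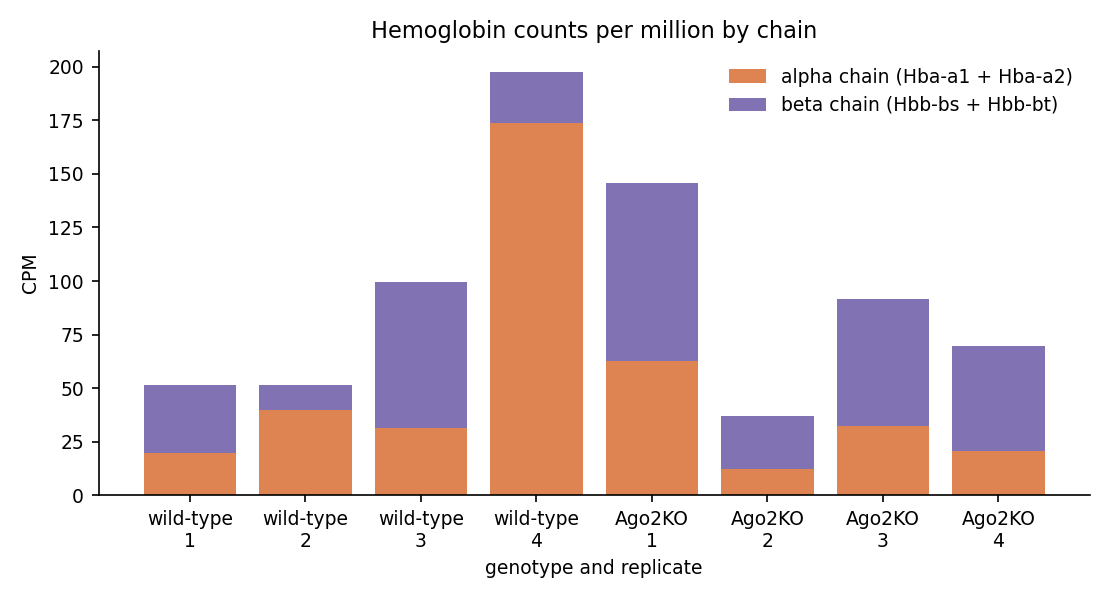
Hemoglobin level (TMM-scaled CPM) in each of the 8 tumor libraries, stacked by chain. The totals run from 37.2 CPM in Ago2KO 2 to 198 CPM in wild-type 4, where the alpha chain makes up most of the bar.

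Per length, the order of the genes followed what red cells are known to make, with hemoglobin chains first. On the deposited TPM scale (transcript abundance corrected for gene length and depth), Hbb-bs was first with 143 ± 77.3 (SD, n = 8), followed by Hba-a1 with 94.7 ± 69.3. Hba-a2 followed with 65.5 ± 62.6 TPM and Hbb-bt was next with 20.7 ± 10.2. Alas2 stood at 4.28 ± 1.96 TPM and Slc4a1 at 0.0788 ± 0.0364. Hbb-bs exceeded Hba-a1 in 6 of 8 libraries, and these neighbors did not differ beyond their spread. Within wild-type the order of their means was the other way, with 117 TPM for Hba-a1 and 105 for Hbb-bs, against 72.7 and 182 in Ago2KO tumors. Every later gene in the order lay below its neighbor in 8 of 8 libraries, though over all libraries the ranges of Hba-a1 and Hba-a2 overlapped, as did those of Hba-a2 and Hbb-bt.

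Hba-a1 encodes the alpha chain, and its level was set apart in 1 tumor. It measured 13.1, 25.1, 21.3 and 103 CPM in wild-type 1 to 4, and 38.8, 8.70, 22.7 and 13.9 CPM in Ago2KO 1 to 4. Wild-type 4 was far above all other tumors, Ago2KO 2 was lowest, and the genotypes overlapped. The log2 fold change of Ago2KO against wild-type was -0.94 ± 0.64 (SE; 95% interval -2.34 to 0.47; adjusted p = 0.353, edgeR). Without wild-type 4 it was 0.10 (adjusted p = 0.924, edgeR), so the direction rested on that library, which held 722 of these reads.

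Hba-a2, the second alpha gene, followed the same order closely. It measured 6.63, 14.6, 9.98 and 70.5 CPM in wild-type 1 to 4, and 24.0, 3.44, 9.61 and 6.64 CPM in Ago2KO 1 to 4. Again wild-type 4 was highest, Ago2KO 2 lowest, and the other tumors of both genotypes intermixed. The log2 fold change was -1.20 ± 0.77 (95% interval -2.89 to 0.49; adjusted p = 0.327, edgeR), and without wild-type 4 it was 0.09 (adjusted p = 0.948). Over the 8 libraries, log2 CPM of both alpha genes had a Pearson r of 0.994 and a Spearman rho of 0.976, which is a description, since they share reads. Without wild-type 2 and Ago2KO 1, the libraries farthest from the Hbb-bs median, r was 0.996.

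Hbb-bs, the major adult beta chain of this strain, was distributed differently from the alpha genes. Over the 8 libraries, its log2 CPM had an r of -0.069 (rho 0) with Hba-a1 and -0.109 (rho 0.024) with Hba-a2. For Hbb-bt these r values were 0.331 and 0.293. The summed hemoglobin share thus joins chains that did not vary closely together. Hbb-bs measured 28.4, 9.72, 60.7 and 19.3 CPM in wild-type 1 to 4, and 72.8, 22.8, 52.4 and 44.1 CPM in Ago2KO 1 to 4. Wild-type 2 and wild-type 4 were the lowest, Ago2KO 1 the highest, and wild-type 3 lay among the Ago2KO tumors. The log2 fold change was 0.69 ± 0.50 (95% interval -0.41 to 1.80; adjusted p = 0.383, edgeR). It was positive under all 25 alternatives, between 0.40 and 1.32, and passed the threshold in none of them. The largest value came without wild-type 3, the muscle-rich library (1.32, adjusted p = 0.0822).

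Hbb-bt, the other adult beta chain, paralleled Hbb-bs at a lower level. It measured 3.41, 2.05, 7.61 and 4.30 CPM in wild-type 1 to 4, and 10.4, 2.33, 7.13 and 4.78 CPM in Ago2KO 1 to 4. Ago2KO 1 was highest, wild-type 2 and Ago2KO 2 lowest, and the genotypes overlapped. The log2 fold change was 0.49 ± 0.49 (95% interval -0.60 to 1.58; adjusted p = 0.535, edgeR). It ran from 0.12 without Ago2KO 1 to 0.94 without wild-type 3 and passed the threshold in neither. Without wild-type 2 it was 0.26, and without Ago2KO 2 it was 0.76. Its r with Hbb-bs was 0.908 and rho 0.929 over the 8 libraries, again with shared reads, and r was 0.817 without wild-type 2 and Ago2KO 1.

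Alas2 encodes the erythroid form of the enzyme that opens heme synthesis. It measured 2.79, 2.91, 6.49 and 5.59 CPM in wild-type 1 to 4, and 2.46, 1.79, 5.04 and 2.41 CPM in Ago2KO 1 to 4. In 3 of 4 Ago2KO tumors its CPM lay below every wild-type tumor, while Ago2KO 3 lay among the higher wild-type values. Exact Poisson 95% intervals overlapped, such as 2.36 to 3.28 CPM in wild-type 1 and 2.04 to 2.94 CPM in Ago2KO 1. By TPM, Ago2KO 4 (3.42) lay above wild-type 1 (3.31). The log2 fold change was -0.60 ± 0.42 (95% interval -1.53 to 0.32; adjusted p = 0.364, edgeR). It stayed negative under all 25 alternatives, between -0.99 and -0.31, and passed the threshold in none.

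Slc4a1 encodes band 3, the anion exchanger that is the chief protein of the red cell membrane, and was at the edge of detection. The wild-type libraries held 5, 3, 12 and 1 reads and the Ago2KO libraries 3, 11, 5 and 39. Scaled to depth, this was 0.0936, 0.143, 0.252 and 0.143 CPM in wild-type 1 to 4, and 0.0615, 0.0964, 0.149 and 0.136 CPM in Ago2KO 1 to 4. The genotypes overlapped, and the exact Poisson 95% interval of the single read in wild-type 4 reached down to 0.00363 CPM. Slc4a1 failed the count filter. In a fit without that filter its log2 fold change was -0.48 ± 0.65 (adjusted p = 0.679, edgeR), so a difference was not detectable at this depth.

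**Figure D2:**
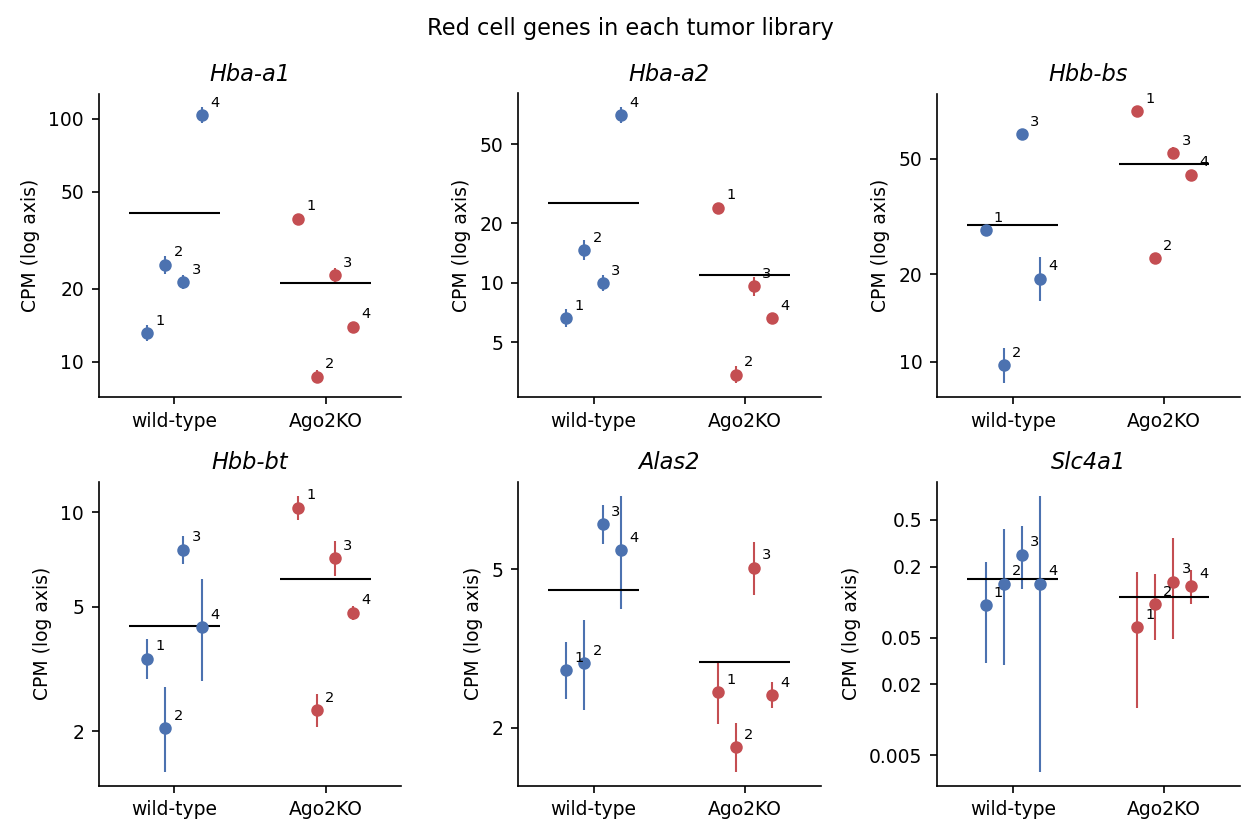
CPM of each gene on a log axis in the 4 wild-type and 4 Ago2KO libraries, numbered by replicate, with exact Poisson 95% intervals (counting error only) and a black line at the arithmetic group mean. The genotypes overlap for every gene, and wild-type 4 stands above the rest for Hba-a1 and Hba-a2 only.

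None of the 5 tested genes passed the threshold, and none had an unadjusted p under 0.05 in edgeR. DESeq2 and limma voom with quality weights also called 0 of 5, and none had an unadjusted p under 0.05 with either. Over all genes tested, edgeR called 560 of 16061, or 3.49%, so no call among 5 genes is near that background. The groups did not overlap for 16.4% of all genes tested and for 0 of these 5. The intervals are wide, reaching -2.34 (log2) for Hba-a1 and -2.89 for Hba-a2, so a p that misses the threshold does not show equal levels.

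**Figure D3:**
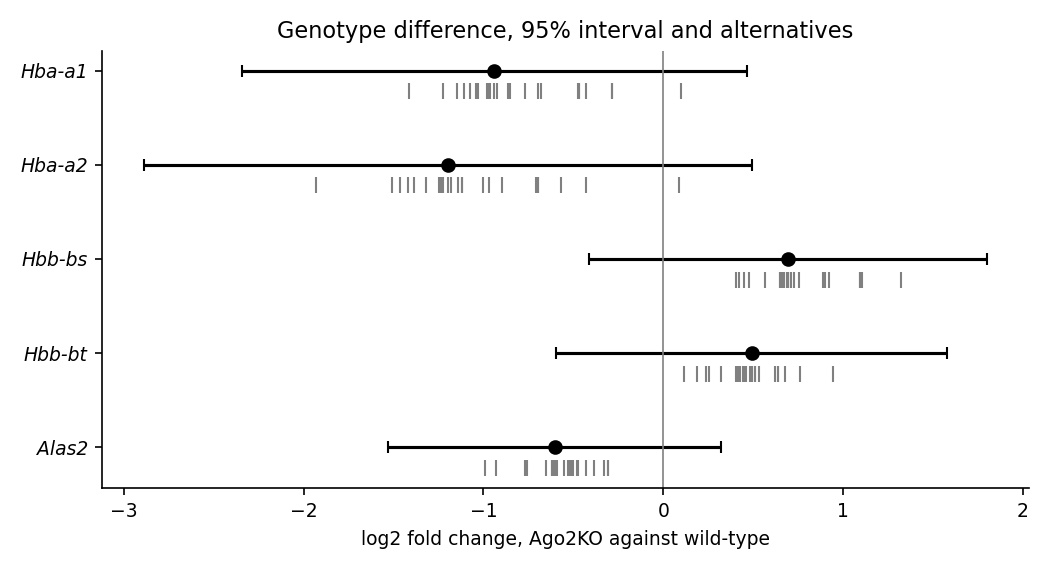
Log2 fold change of Ago2KO against wild-type for the 5 tested genes, with 95% intervals (black), and the values under each alternative analysis (grey ticks). Every interval crosses 0, and the alpha genes lie left of 0 and the beta genes right of it, except for the alpha values without wild-type 4 (0.10 and 0.09).

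The balance of the chains set 2 wild-type tumors apart. The ratio of alpha to beta counts was 0.621, 3.38, 0.458 and 7.36 in wild-type 1 to 4, and 0.755, 0.483, 0.543 and 0.421 in Ago2KO 1 to 4. In 6 libraries alpha lay below beta, with ratios from 0.421 to 0.755, and those of wild-type 1 and wild-type 3 fell within the Ago2KO range. Wild-type 2 and wild-type 4 were the exceptions, and they were also the 2 shallowest libraries. Their beta counts were 247 and 165, against 834 and 1214 alpha counts, so sampling error is small beside the difference: the alpha share of hemoglobin counts was 88.0% in wild-type 4, with an exact 95% interval whose lower bound was 86.2%.

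The same ratio on the TPM scale was 3.40 in wild-type 2 and 7.45 in wild-type 4, against 0.423 to 0.764 in the other libraries. GC content moved with it. The alpha transcripts hold 57.22% (Hba-a1) and 56.86% (Hba-a2) G and C, above the beta transcripts with 51.27% (Hbb-bs) and 50.78% (Hbb-bt). Across all well-counted genes, a trend with GC content was fitted in each library to log2 CPM relative to the gene's mean over the 8 libraries. It favored Hba-a1 over Hbb-bs by 0.43 (log2) in wild-type 2 and by 0.60 in wild-type 4. In the other 6 libraries that difference was between -0.31 and -0.06. These values are relative, so they balance out over the 8 libraries, and a GC effect common to all of them is not removed. With each library's trend divided out, an alternative chosen after seeing the data, the ratio was 2.51 in wild-type 2 and 4.89 in wild-type 4, and 0.495 to 0.787 in the rest. Depth, the GC trend and the ratio thus moved together in these tumors, and the part of depth in the ratio was not tested.

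**Figure D4:**
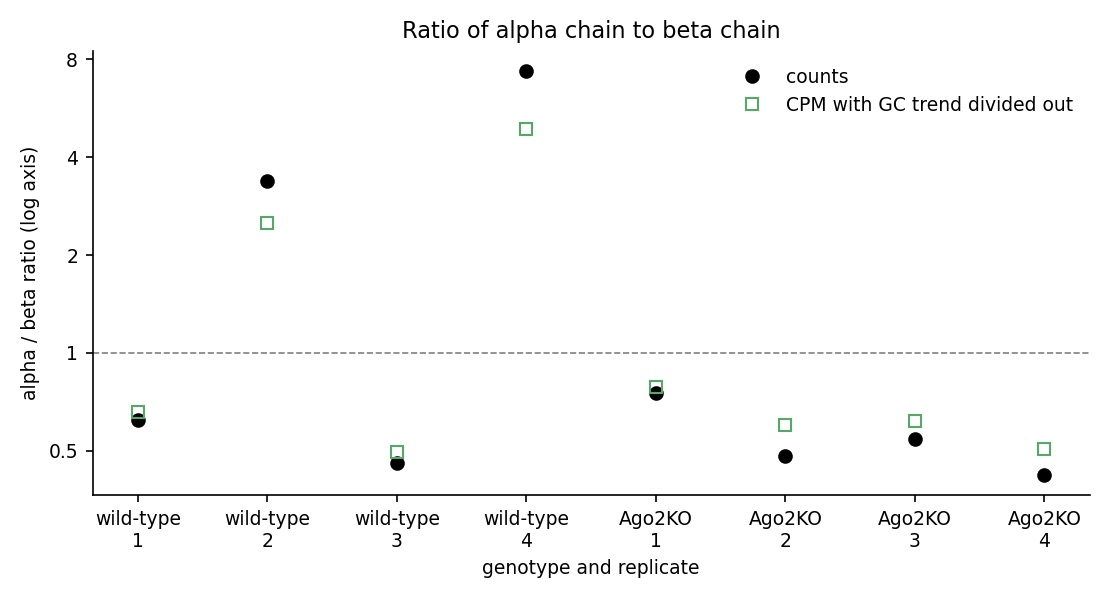
Ratio of alpha chain to beta chain in each library on a log axis, from counts (filled circles) and from CPM with each library's GC trend divided out (open squares), with a dashed line at 1. Wild-type 2 and wild-type 4 lie above 1 by both measures, at 2.51 to 7.36, and the other 6 libraries below 1.

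As log2 ratios, wild-type tumors averaged 0.71 ± 1.93 (SD, n = 4) and Ago2KO tumors -0.90 ± 0.36, a difference of -1.60 that was smaller than the wild-type spread. Without wild-type 4 the wild-type mean was -0.019 and the difference -0.88, and without wild-type 2 they were 0.36 and -1.25. Without wild-type 3 they were 1.32 and -2.21, and without wild-type 1 the mean was 1.17. The split within each chain varied less. Hba-a2 made up 31.9% to 40.5% of alpha counts in wild-type and 28.3% to 38.2% in Ago2KO tumors. Hbb-bt made up 10.7% to 18.2% of beta counts in wild-type and 9.29% to 12.5% in Ago2KO tumors, the 2 highest again being wild-type 2 (17.4%) and wild-type 4 (18.2%). With 43 and 30 reads behind them, their intervals began at 12.9% and 12.6%. Within-pair shares also carry the uncertainty of shared reads.

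Relative to hemoglobin, the other red cell genes varied from tumor to tumor. Alas2 counts per 1000 hemoglobin counts were 54.1, 56.4, 65.2 and 28.3 in wild-type 1 to 4, and 16.9, 48.0, 54.9 and 34.8 in Ago2KO 1 to 4. The lowest was Ago2KO 1, a tumor with high hemoglobin, and the next was wild-type 4, the tumor with the highest. Hemoglobin counts are the divisor here and for Slc4a1 below, so high hemoglobin by itself lowers both ratios. Slc4a1 per 1000 hemoglobin counts ran from 0.725 to 2.78 in wild-type and from 0.422 to 2.59 in Ago2KO tumors. The same 2 tumors were lowest, but on 1 read in wild-type 4 and 3 in Ago2KO 1, so this order is uncertain. Set against beta counts alone, Alas2 ran from 87.6 to 247 per 1000 in wild-type and from 29.6 to 84.7 per 1000 in Ago2KO tumors. These ranges did not overlap, but their nearest values lay close, at 87.6 in wild-type 1 and 84.7 in Ago2KO 3. Counting error exceeds this gap, since the exact Poisson 95% interval of Alas2 in wild-type 1 was 2.36 to 3.28 CPM around 2.79. The separation is therefore not read as a difference, and against all hemoglobin counts the ranges of Alas2 overlapped. The 2 highest values against beta counts were those of wild-type 2 and wild-type 4, the tumors with few beta counts. Log2 CPM of Alas2 and Slc4a1 had an r of 0.740 (rho 0.786) over the 8 libraries, and 0.794 without wild-type 2 and Ago2KO 1. Alas2 had an r of 0.187 with Hbb-bs, 0.432 with Hbb-bt and 0.570 with Hba-a1, and without those 2 libraries these were 0.376, 0.812 and 0.725. Slc4a1 and Hbb-bt had an r of 0.0335, and of 0.854 without those libraries, so the order of these values changed with 2 tumors. The r values of Slc4a1 rest on 1 to 39 reads per library. All r values are descriptions, since the genes of a library share its depth and makeup.

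The other hemoglobin chains, which serve the embryo or are minor, were at or near 0. Hbb-bh0, Hbb-bh1, Hbb-bh2 and Hbb-y had 0 reads in all 8 libraries, Hba-x had 1 read in Ago2KO 4, and Hbq1a and Hbq1b had at most 3 reads in a library. The hemoglobin signal was therefore that of adult chains, within a limit that 3 reads set at 0.0105 CPM in the deepest library and 0.430 CPM in the shallowest.

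Several genes that mark red cell precursors were at low levels as well, though not all genes of their lists were. Rhag, a membrane protein of the red cell Rh complex that was named after its values were seen, had 0 reads in all 8 libraries. Aqp1 of the same membrane list was at 114 CPM ± 28.4 in wild-type and 62.6 ± 5.08 in Ago2KO tumors. Among the erythroid regulators, Zfpm1 was at 65.3 CPM ± 28.4 in wild-type and 36.4 ± 8.76 in Ago2KO tumors. Klf1, the factor that switches on adult beta globin, was at 0.503 CPM ± 0.344 in wild-type and 0.146 ± 0.0423 in Ago2KO tumors (log2 fold change -1.51, adjusted p = 0.113, edgeR). Its highest value, 1.00 CPM, came from the 7 reads of wild-type 4. Gata1, the master factor of erythroid cells, was between 0.0438 and 0.430 CPM. Epor, the erythropoietin receptor, was at 3.47 CPM ± 2.36 in wild-type and 1.21 ± 0.327 in Ago2KO tumors (log2 fold change -1.47, adjusted p = 0.0972). Wild-type 4 was highest for these 3 genes too. Other genes of the same list lay in the other direction, such as Tfr2, a sensor of iron-loaded transferrin named after its values were seen (0.479 CPM ± 0.147 in wild-type, 1.28 ± 0.259 in Ago2KO, log2 fold change 1.47, adjusted p = 0.0635, edgeR).

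Further red cell genes were read from fixed lists, chosen with earlier results of these data known, and over all genes tested the median log2 fold change was 0.04. Heme synthesis had 0 of 14 tested genes called, with a median of -0.15. Its most abundant genes were Alad (137 CPM ± 50.0 in wild-type, 103 ± 41.9 in Ago2KO), Tmem14c and Slc25a37, the mitochondrial iron importer, genes that other cell types express too. Of 11 erythroid regulators, 0 of 9 tested were called (median -0.02), including Tfrc, the transferrin receptor, at 21.4 ± 10.5 CPM in wild-type and 63.4 ± 32.6 in Ago2KO (adjusted p = 0.064, edgeR). Late erythroid enzymes and chaperones had 0 of 6 called (median -0.07), with Prdx2, Bnip3l and Blvrb most abundant. In contrast, Car1, Trim58 and Tspo2 of that list had at most 2 reads in a library.

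The red cell membrane and skeleton list held the 1 called gene of the red cell lists, Add2. Add2 encodes beta-adducin, which caps actin in the red cell skeleton and is also made in neurons. It rose from 33.8 CPM ± 2.20 in wild-type to 121 ± 19.0 in Ago2KO tumors (log2 fold change 1.84 ± 0.19, adjusted p = 0.00213, edgeR), with 31.0 to 36.2 CPM in all wild-type and 95.9 to 142 CPM in all Ago2KO tumors. Add2 was ordered differently from the hemoglobin genes, as its lowest Ago2KO value was in Ago2KO 1 and its highest in Ago2KO 2, the tumors with the most and the least hemoglobin of that genotype. Of the 9 tested genes of this list, 1 was called higher and 0 lower, beside 3.49% of all genes tested called in either direction, and the median was -0.86. Add2 passed the threshold in 24 of 25 alternatives, the exception being limma on log2(TPM + 1) with no filter (adjusted p = 0.0509).

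Genes that clear free hemoglobin and heme gave 0 of 14 called (median -0.20). Among the most abundant were the ferritin chains Fth1 (3311 CPM ± 456 in wild-type, 3342 ± 1283 in Ago2KO) and Ftl1, and Lrp1, the receptor for hemopexin-bound heme (1165 ± 426 against 608 ± 163; adjusted p = 0.102, edgeR).

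Other blood cells were checked as companions of red cells. The summed platelet and megakaryocyte list ran from 51.0 to 92.6 CPM in wild-type and from 24.5 to 91.5 CPM in Ago2KO tumors, with 0 of 4 tested genes called and a median log2 fold change of -1.09, none of the 4 being above 0. Its highest libraries were wild-type 3 and Ago2KO 1, the tumors with the highest Hbb-bs of their genotype, and Ago2KO 2 was lowest of its genotype in both. Pf4, platelet factor 4, was at 50.6 CPM ± 14.7 in wild-type and 43.3 ± 28.6 in Ago2KO tumors, and Ppbp, a platelet chemokine, at 6.70 ± 6.05 and 2.98 ± 1.29. Itga2b, a platelet integrin chain, was at 6.06 ± 2.80 and 2.50 ± 0.565 CPM (adjusted p = 0.0763, edgeR). Of the defining platelet genes, Gp9 had at most 5 reads in a library. Neutrophil genes summed to 25.02 to 62.7 CPM in wild-type and 42.2 to 67.1 in Ago2KO tumors (0 of 5 called), led by Csf3r, S100a9 and S100a8. B cell genes summed to 2.72 to 6.62 and 4.13 to 7.16 CPM (0 of 4 called), with Cd22, Pax5 and Cd79b highest. The part of these cells in the hemoglobin levels was not tested.

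Tissues around a subcutaneous tumor can bring blood vessels with them, and their markers differed between libraries. Endothelial genes summed to 166 to 254 CPM in wild-type and 160 to 203 CPM in Ago2KO tumors, and 1 of 10 was called, Vwf, the von Willebrand factor of vessel walls and platelets (25.4 ± 7.74 against 11.9 ± 0.821 CPM; log2 fold change -1.09, adjusted p = 0.0466, edgeR). The Vwf call was kept in 11 of 25 alternatives and in 2 of the 8 fits that left out a library, with adjusted p from 0.00204 to 0.372. Skeletal muscle genes, with Acta1, Atp2a1 and Ckm most abundant, summed to 283, 378, 4017 and 547 CPM in wild-type 1 to 4 and to 52.6 to 232 CPM in Ago2KO tumors. These ranges did not overlap, also without wild-type 3, and the median log2 fold change was -2.87 with 0 of 10 called. Skin keratinocyte genes summed to 16.2 to 591 CPM in wild-type and 477 to 929 CPM in Ago2KO tumors (1 of 10 called, Krt10, log2 fold change 2.06, adjusted p = 0.046). The Krt10 call was kept in 13 of 25 alternatives and in 2 of the 8 fits that left out a library, with adjusted p from 0.000794 to 0.153. Adipocyte genes were highest in Ago2KO 1 (320.3 CPM) and wild-type 3 (179 CPM), with 0 of 7 called and Cfd, Lipe and Cidec most abundant. These same tumors had the most Hbb-bs of their genotype, and the part of surrounding tissue in it was not tested.

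**Figure D5:**
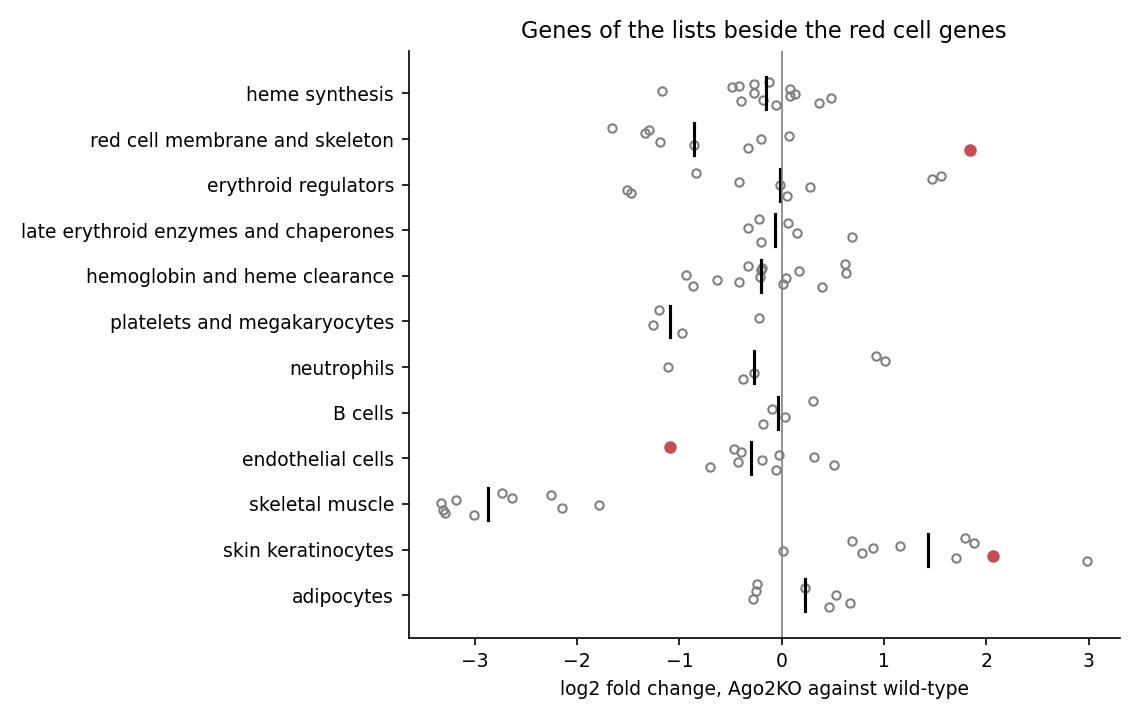
Log2 fold change of Ago2KO against wild-type for each tested gene of 12 lists, with called genes filled in red and a black bar at each list's median. Only Add2, Vwf and Krt10 are called, 3 of 102 genes (2.94%), beside 3.49% of all genes tested.

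The genes whose level was most like that of Hbb-bs were not red cell genes. Ranked by Pearson r of log2 CPM over 8 libraries, the first 8 of 16056 other genes were Wfdc21, Tpt1, Pgrmc2, Prelid2, Gm43965, Ypel5, Mpc1 and Timm23, with r from 0.959 to 0.980 and rho from 0.929 to 1. Without wild-type 2 and Ago2KO 1, the libraries farthest from the Hbb-bs median, r was 0.884 to 0.976. Wfdc21, ranked first, ran only from 0 to 1.85 CPM, and Gm43965 from 0.143 to 1.00 CPM. In wild-type 4 both lay under the 0.430 CPM that 3 reads set there, so few reads stand behind their r. Tpt1, a very abundant growth-related protein of most cells, ran from 1115 CPM in wild-type 2 to 4001 CPM in Ago2KO 1, in the same order of libraries as Hbb-bs (rho = 1). Timm23, part of the mitochondrial import channel, and Mpc1, a pyruvate carrier, ran from 28.2 to 62.1 and from 9.53 to 23.4 CPM. None of the 8 was called between genotypes. All r values are descriptions, since the genes of a library share its depth and its GC trend, and these differed between libraries.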

How the data were processed

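Bulk RNA-seq of 4 wild-type and 4 Ago2KO tumors was analysed, grouped by the sample labels (biological replicates). The authors deposited raw read counts per gene and TPM (per length, scaled to the same total in every library); stranded poly(A) libraries were sequenced in pairs of 100 bases, and the submitters' processing notes name STAR and mm10. The study's methods, written for cultured cells, name featureCounts; annotation and treatment of multi-mapping reads are not given in the sources used here. Of 55487 identifiers, 55094 matched GENCODE M21 with the same symbol. Counts were filtered (filterByExpr), TMM-scaled and tested with edgeR 4.0.16 (quasi-likelihood, R 4.3.3), with Benjamini-Hochberg adjustment over 16061 genes and a threshold of 0.05. DESeq2 1.42.0, limma 3.58.1 (voom, and log2(TPM + 1) with at least 0.5 TPM in 4 libraries), other scalings and filters, GC and length trends and leaving out each library were alternatives. Scripts were tested on simulated data. Hemoglobin shares, ratios, lists and correlations are descriptions without a test. No pair of libraries of a genotype agreed within sampling noise (chi-square per degree of freedom at least 39.6). Named genes were the members, Ago2, other hemoglobin chains, defining markers, called genes or the 3 most abundant of each list, and the 8 genes most like Hbb-bs. A defining marker is not reported here. Rhag, Gp9, Tfr2, Aqp1, Car1, Trim58 and Tspo2 were added after their values were seen. The members and lists were chosen with earlier results of these data known. Totals of 7903288 to 268564145 counts limit precision most in wild-type 4.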

Additional observations from a re-analysis of the deposited data

Results flagged for a closer look

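Of 54 groups of 4 values examined, 9 held a value set apart by the size of its gap to the nearest. Chance alone would give about 2.7 if the groups were independent and the values normally distributed. The groups are not independent, since Hba-a1, Hba-a2 and their sum count separately, so 9 is not read as an excess over chance. Wild-type 4, the shallowest library, stood above the other wild-type tumors for Hba-a1 (103 CPM against 13.1 to 25.1), Hba-a2 (70.5 against 6.63 to 14.6) and their sum (174 against 19.8 to 39.7). Wild-type 3 stood apart for the summed skeletal muscle (4017 CPM against 283 to 547), adipocyte (179 against 32.4 to 45.3) and platelet (92.6 against 51.0 to 57.6) genes. Ago2KO 1 stood apart for adipocyte (320.3 CPM against 12.4 to 28.5) and heme synthesis (724 against 581 to 602) genes. Wild-type 1 was low for endothelial genes (166 CPM against 244 to 254).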

How the results depend on the processing

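None of the 5 tested genes was called under any of the 25 alternatives. Leaving out wild-type 4 reversed Hba-a1 to 0.10 and Hba-a2 to 0.086 (log2); over all left-out libraries these genes ran from -1.42 to 0.10 and from -1.93 to 0.09. Hbb-bs, Hbb-bt and Alas2 kept their direction under every alternative. An unadjusted p under 0.05 came for Hbb-bs in the replicate block fit, in the block fit with the GC trend removed and without wild-type 3, for Hba-a2 without Ago2KO 1 and for Alas2 without Ago2KO 3. As a share of TPM, hemoglobin was 0.0325% in wild-type and 0.0324% in Ago2KO tumors, higher than by counts since TPM divides by length. By counts, the log2 ratio of the genotypes ran from -0.43 to 0.33 over left-out libraries. Genes of the fixed lists called were 3, against 13 with no filter, 17 with DESeq2, 1 in the replicate block and 1 to 9 over left-out libraries; the cause was not tested. Over all genes, 560 were called, against 2274 with DESeq2, 4476 with voom, 983 with no filter, 1232 with the length trend removed, 153, 107 and 77 with limma on TPM (log2(TPM + 1), log2(TPM + 0.1) and no filter), 307 in the block with the GC trend, 70 in the replicate block and 88 to 1793 over left-out libraries. Deviations from the group means had r of -0.24, 0.10, -0.04 and -0.29 between same-numbered tumors, and of -0.22 to 0.32 between differently numbered ones. A small shared effect could give such values, so whether the numbers pair the tumors is not known. In the block fit Hbb-bs was 0.90 (adjusted p = 0.219, edgeR). Depth limits Slc4a1 most, with 1 to 39 reads.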
